A study of Mus musculus with 14 samples.

Results

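Homer2 and Rcan2 were lower in the vastus lateralis muscle of mice that lack the imprinting center of the Prader-Willi syndrome domain (PWS-IC del) than in that of wild-type littermates, and they are described here with their paralogs and with genes of the calcineurin-NFAT pathway. The set holds 10 genes, namely Homer1, Homer2, Homer3, Rcan1, Rcan2, Rcan3, Ppp3ca, Ppp3cb, Nfatc1 and Nfatc3. Every probe set annotated to 1 of these symbols was taken, which gave 31 of the 45037 probe sets that are not controls, and 10 of the 18193 genes with a probe set of their own. The set was chosen by the muscle values of Homer2 and Rcan2, which were lower in PWS-IC del mice, so every muscle difference between genotypes below is a description without a test. The brain arrays took no part in that choice and were tested. The contrast between wild-type brain and wild-type muscle was tested too. It shares the wild-type muscle arrays with that choice, so its Homer2 and Rcan2 results are not independent of the choice.

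Calcineurin is a phosphatase switched on by calcium and calmodulin. It removes phosphate from the NFAT transcription factors, which then enter the nucleus, and in skeletal muscle this pathway is known for its part in setting the slow and oxidative character of fibres. Rcan proteins bind calcineurin and can inhibit it, and Rcan1 has an internal transcription start that NFAT itself switches on. Homer proteins are scaffolds that hold glutamate receptors, inositol trisphosphate receptors, ryanodine receptors and TRPC channels together at synapses and at the calcium stores of muscle. In T cells, Homer2 and Homer3 are known to compete with calcineurin for NFAT.

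The groups were PWS-IC del brain (3 arrays), wild-type brain (4 arrays), PWS-IC del muscle (3 arrays) and wild-type muscle (4 arrays), each array holding a separate biological sample of total RNA on an Affymetrix mouse expression array. Mutants and wild-type littermates of the same age came from an F1 cross between FVB and B6, and the muscle was the vastus lateralis of the quadriceps. The brain samples are described as whole brain, while their titles say only brain tissue. The sources used here do not give age, sex, the number of animals behind a sample or the parent that passed on the deletion. Values are log2(intensity + 16), so a difference of 1 is a 2-fold change of intensity plus 16, and changes of dim probe sets are understated. Each probe set has its own affinity, so values were compared between arrays and never between probe sets.

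Genes of the imprinted domain were read as a check of the genotype labels. Ndn, a paternally expressed gene of the domain, by its brightest probe set lay between 8.04 and 8.95 in PWS-IC del brain, against 12.52 to 13.27 in wild-type brain, and between 5.36 and 6.17 in PWS-IC del muscle, against 8.61 to 9.38 in wild-type muscle. The probe set of Snurf and Snrpn with the lowest mutant values lay between 4.00 and 4.42 in PWS-IC del brain and between 12.98 and 13.24 in wild-type brain. Both probe sets separated the genotypes in both tissues, whereas a dim Ndn probe set and that of Peg12 overlapped in brain. In muscle, the probe sets of Magel2 and Mkrn3 and a dim one of Snurf and Snrpn overlapped. Some arrays stood apart within their group. The mean of 7 skeletal muscle markers was 10.09 in wild-type brain 1 and 9.43 in wild-type brain 3, while the other 5 brain arrays lay between 6.38 and 6.82. Wild-type brain 3 also carried pituitary markers, with a mean of 9.22. The mean of 7 cerebellar markers was 12.84 in PWS-IC del brain 2 and 10.84 in wild-type brain 3, and no more than 9.57 elsewhere in brain. Among these markers, Gabra6 read 10.91 and 7.06 on those arrays and 4.00 to 4.64 on the other 5. The brain samples thus did not carry cerebellar signal alike, and whether they hold the same regions was not tested. In muscle, the mean of 11 slow fibre markers was 9.01 in wild-type 2, below the 9.70 to 10.72 of PWS-IC del muscle and the 10.49 to 10.80 of wild-type 1, 3 and 4. Values that move with these arrays are given without them too, for the genes named below.

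The promoters of Homer2 and Rcan2, the genes chosen for their lower muscle values, are shown. Beside them stands the internal start of Rcan1 as the known NFAT-responsive start of the family. The sequences are RefSeq's (mouse build GRCm38.p6) and run 5′ to 3′ on the gene's strand, from 250 bases before an annotated start to 50 bases after it. Capitals mark GGAAA, the core of NFAT sites, or its reverse TTTCC. Homer2 lies on the minus strand of chromosome 7 with an upstream start (chr7:81706876-81707175) and a downstream start (chr7:81692916-81693215). Rcan2 lies on the plus strand of chromosome 17 with 3 starts (chr17:43801102-43801401, chr17:43801601-43801900 and chr17:43952749-43953048). The internal start of Rcan1 lies on the minus strand of chromosome 16 (chr16:92400029-92400328).
Homer2, upstream start: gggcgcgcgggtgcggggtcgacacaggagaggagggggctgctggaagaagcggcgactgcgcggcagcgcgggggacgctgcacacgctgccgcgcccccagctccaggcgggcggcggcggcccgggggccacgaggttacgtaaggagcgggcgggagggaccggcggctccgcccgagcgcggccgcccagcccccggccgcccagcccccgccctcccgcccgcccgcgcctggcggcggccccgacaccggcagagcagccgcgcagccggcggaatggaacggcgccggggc
Homer2, downstream start: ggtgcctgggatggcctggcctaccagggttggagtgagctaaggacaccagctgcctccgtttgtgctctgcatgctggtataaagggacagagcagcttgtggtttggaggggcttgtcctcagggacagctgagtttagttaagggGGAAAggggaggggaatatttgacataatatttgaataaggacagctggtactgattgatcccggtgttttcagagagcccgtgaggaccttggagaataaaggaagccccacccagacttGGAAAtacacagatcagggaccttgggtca
Rcan2, first start: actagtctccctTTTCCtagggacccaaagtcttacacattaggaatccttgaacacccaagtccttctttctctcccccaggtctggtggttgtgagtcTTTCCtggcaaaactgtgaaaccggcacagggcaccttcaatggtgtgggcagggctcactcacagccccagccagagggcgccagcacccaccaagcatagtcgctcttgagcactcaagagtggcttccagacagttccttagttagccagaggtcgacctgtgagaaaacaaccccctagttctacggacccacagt
Rcan2, second start: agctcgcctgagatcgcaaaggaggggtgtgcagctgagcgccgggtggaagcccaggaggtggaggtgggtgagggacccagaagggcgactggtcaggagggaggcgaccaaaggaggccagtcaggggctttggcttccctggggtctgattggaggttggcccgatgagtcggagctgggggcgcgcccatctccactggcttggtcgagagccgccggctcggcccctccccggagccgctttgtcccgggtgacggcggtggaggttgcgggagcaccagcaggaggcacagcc
Rcan2, last start: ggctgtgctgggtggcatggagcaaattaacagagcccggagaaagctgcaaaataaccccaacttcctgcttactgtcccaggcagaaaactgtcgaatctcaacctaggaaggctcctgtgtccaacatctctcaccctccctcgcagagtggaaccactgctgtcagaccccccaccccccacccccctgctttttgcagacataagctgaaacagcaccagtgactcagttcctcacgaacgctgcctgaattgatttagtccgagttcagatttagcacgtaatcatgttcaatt
Rcan1, internal start: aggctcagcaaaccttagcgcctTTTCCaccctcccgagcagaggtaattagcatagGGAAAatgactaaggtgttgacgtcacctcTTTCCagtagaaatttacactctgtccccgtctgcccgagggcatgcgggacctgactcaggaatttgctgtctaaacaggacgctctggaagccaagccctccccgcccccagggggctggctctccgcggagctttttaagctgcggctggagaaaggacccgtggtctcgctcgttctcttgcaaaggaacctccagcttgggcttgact

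The core GGAAA, read on both strands, was found 3 times in the internal Rcan1 window, 2 times each in the downstream Homer2 window and the first Rcan2 window, and 0 times in the other 3 windows shown. The upstream Rcan1 window held 0 matches and the Ppp3cb window 4. Such a short core is common: 61.3% of the 32851 RefSeq windows of this length hold at least 1 match, and 9.42% hold 3 or more. AGGTCA, a core of many nuclear receptor sites, was found 0 times on either strand in the 5 windows of Homer2 and Rcan2, against 16.3% of all windows. CANNTG, the E-box, stands in 72.3% of all windows, and was found 3 times in the downstream Homer2 window, 1 time in the second Rcan2 window and 0 times in the other 3. A match describes the letters of the window and does not show binding.

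Homer2, the scaffold, was lower in every PWS-IC del muscle array than in any wild-type muscle array by all 3 of its probe sets. The leading probe set 1424367_a_at read 9.29, 9.05 and 8.97 in PWS-IC del muscle, against 9.99, 9.94, 10.02 and 10.03 in wild-type muscle. The group means were 9.10 ± 0.17 (SD, n = 3) in PWS-IC del muscle and 10.00 ± 0.04 (SD, n = 4) in wild-type muscle. The difference was -0.89 with a standard error of 0.08, which put the mutant level at 53.8% of the wild-type level. Probe set 1457671_at read 8.45, 8.50 and 8.52 in PWS-IC del muscle, against 9.25, 9.43, 9.30 and 9.34 in wild-type muscle, a difference of -0.84 ± 0.05 (SE). The dimmest, 1436110_at, read 6.02, 5.63 and 5.23 in PWS-IC del muscle, against 6.12, 6.17, 6.24 and 6.22 in wild-type muscle. Its difference was -0.56 ± 0.19 (SE), and it lay between -0.76 and -0.36 when 1 array at a time was left out, the ends coming without PWS-IC del 1 and without PWS-IC del 3. In bulk tissue, fewer cells of a type and less RNA per cell cannot be told apart.

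Rcan2, a calcineurin inhibitor, was lower by a like amount. Probe set 1421425_a_at read 9.97, 9.61 and 9.61 in PWS-IC del muscle, against 10.70, 10.53, 10.57 and 10.56 in wild-type muscle. The means were 9.73 ± 0.21 (SD, n = 3) in PWS-IC del muscle and 10.59 ± 0.07 (SD, n = 4) in wild-type muscle, so that the mutant level was 55.1% of the wild-type level (difference -0.86 ± 0.11, SE). PWS-IC del 1 was the highest of the 3 mutant arrays by this probe set, as it was for Homer2 by 1424367_a_at. The dimmer 1450243_a_at read 7.44, 6.92 and 7.11 in PWS-IC del muscle, against 7.65, 7.61, 7.70 and 8.08 in wild-type muscle, a difference of -0.61 ± 0.18 (SE). The 2 groups did not overlap for either probe set.

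**Figure D1:**
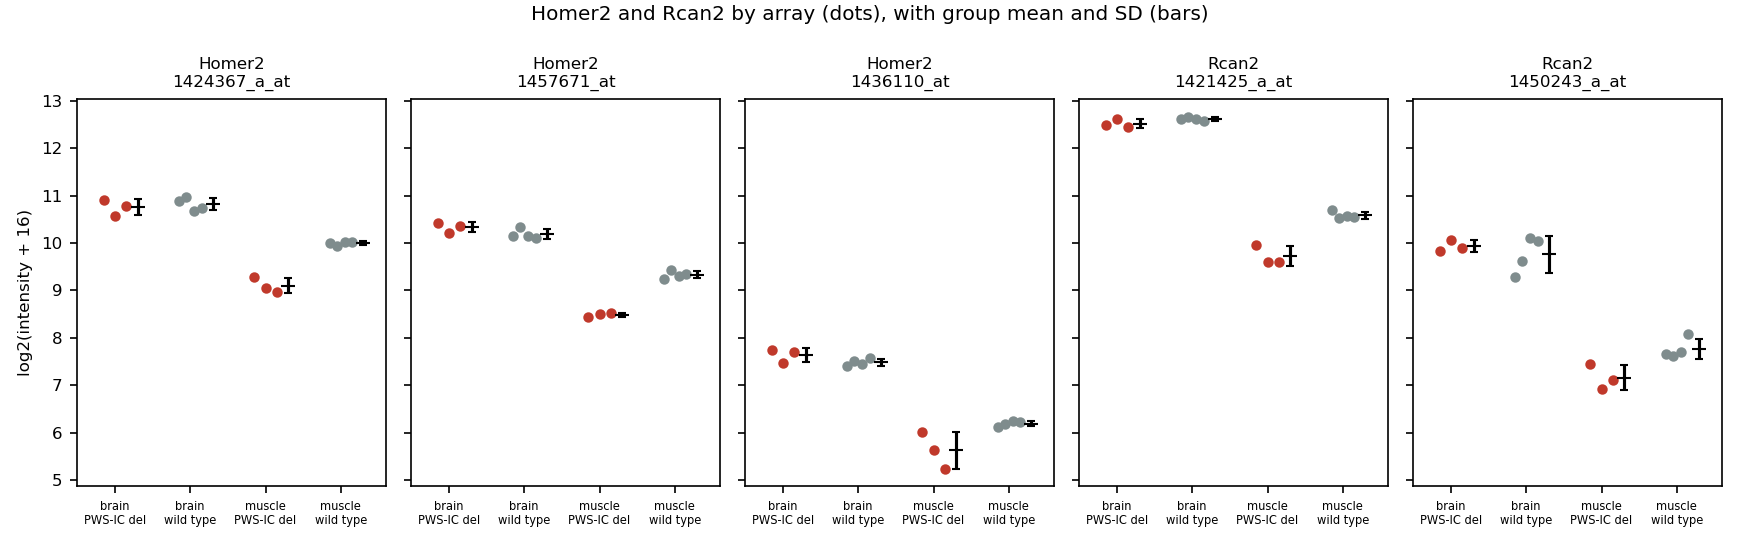
Homer2 (3 probe sets) and Rcan2 (2 probe sets) on every array, as log2(intensity + 16); dots are arrays, and the bars beside them give the group mean and its SD. PWS-IC del muscle lies below wild-type muscle in all 5 panels (for 1424367_a_at 8.97 to 9.29 against 9.94 to 10.03), while PWS-IC del and wild-type brain overlap in all 5.

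The paralogs of Homer2 and Rcan2 had smaller differences. Homer1, whose gene also makes a short form induced by neuronal activity, had positive differences by all 6 probe sets, between 0.01 and 0.39, and 4 of the 6 stayed positive when any 1 array was left out. Its probe set 1436387_at read 10.08, 10.11 and 10.13 in PWS-IC del muscle, against 9.76, 9.68, 9.92 and 9.83 in wild-type muscle, a difference of 0.31 ± 0.06 (SE), and was the only one of the 6 whose groups did not overlap. The 2 whose sign turned, 1437363_at and 1439662_at, differed by 0.01 ± 0.06 and 0.01 ± 0.11 (SE) and reached -0.02 without PWS-IC del 3 and -0.04 without wild-type 2. Without wild-type 2, 1425710_a_at differed by 0.10, against 0.20 with all arrays, and 1421768_a_at by 0.14, against 0.28. Homer3, whose sign also turned without PWS-IC del 1 or wild-type 1, differed by 0.04 ± 0.14 (SE), with 6.73, 6.62 and 6.41 in PWS-IC del muscle and 6.32, 6.73, 6.66 and 6.47 in wild-type muscle. Rcan1, the inhibitor with the NFAT-driven start, differed by 0.00 ± 0.16 (SE, 1416600_a_at; -0.18 without PWS-IC del 1) and 0.11 ± 0.29 (SE, 1416601_a_at). The second of these read 9.18 in PWS-IC del 1 but 8.31 and 8.27 in the other mutant arrays, against 8.50, 8.10, 8.72 and 8.59 in wild-type muscle, and its difference was -0.19 without PWS-IC del 1 and -0.02 without wild-type 2. Rcan3 differed by -0.13 ± 0.12 (SE, 1434027_at) and by -0.20 ± 0.17 (SE) for 1450450_at, which was too dim in muscle to enter the fit. The groups overlapped for both Rcan1 and both Rcan3 probe sets.

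Differences of the calcineurin catalytic subunits were small and mostly positive. Ppp3ca, the alpha subunit, read 12.13, 12.15 and 12.04 in PWS-IC del muscle by its leading probe set 1426401_at, against 11.98, 11.86, 12.00 and 11.98 in wild-type muscle, a difference of 0.16 ± 0.05 (SE). Its 1452056_s_at differed by 0.22 ± 0.03 (SE), also without overlap, and 1438478_a_at by 0.04 ± 0.05 (SE) with overlap. Ppp3cb, the beta subunit, differed by 0.09 ± 0.03 (SE) by 1428473_at, with 12.69, 12.71 and 12.77 in PWS-IC del muscle and 12.65, 12.57, 12.64 and 12.65 in wild-type muscle. These groups lay close but did not overlap, whereas the other 4 Ppp3cb probe sets overlapped and differed by -0.10 to 0.07. The mutant level of Ppp3ca and Ppp3cb by these leading probe sets was 111% and 107% of the wild-type level.

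The NFAT factors gave no single direction. Nfatc1, which moves between cytoplasm and nucleus with the activity of slow fibres, differed by 0.23 ± 0.12 (SE) by its leading probe set 1428479_at, with 10.68, 10.43 and 10.32 in PWS-IC del muscle and 10.43, 10.08, 10.26 and 10.21 in wild-type muscle. Without PWS-IC del 1, its highest array, the difference was 0.13. Probe set 1447084_at of the same gene went the other way without overlap, with 7.02, 7.09 and 7.28 in PWS-IC del muscle, against 7.62, 7.38, 7.52 and 7.40 in wild-type muscle, a difference of -0.35 ± 0.09 (SE). The other 3 Nfatc1 probe sets overlapped and differed by 0.08 to 0.14, so the probe sets of this gene disagree. Nfatc3, a family member present in most tissues, differed by 0.08 ± 0.09 (SE, 1419976_s_at) and -0.16 ± 0.23 (SE, 1452497_a_at), with overlap in both. The second of these lay between -0.30 and -0.02 when 1 array at a time was left out, the ends coming without wild-type 2 and without wild-type 1. Of the 29 member probe sets bright enough for the muscle fit, 10 did not overlap between genotypes (34.5%), 6 of them lower and 4 higher in PWS-IC del muscle. Over all 33778 probe sets of that fit the shares were 11.9% in either direction, 6.76% lower and 5.13% higher. Since these arrays chose Homer2 and Rcan2, whose 5 probe sets are among the 6 lower ones, nothing is read from the comparison.

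**Figure D2:**
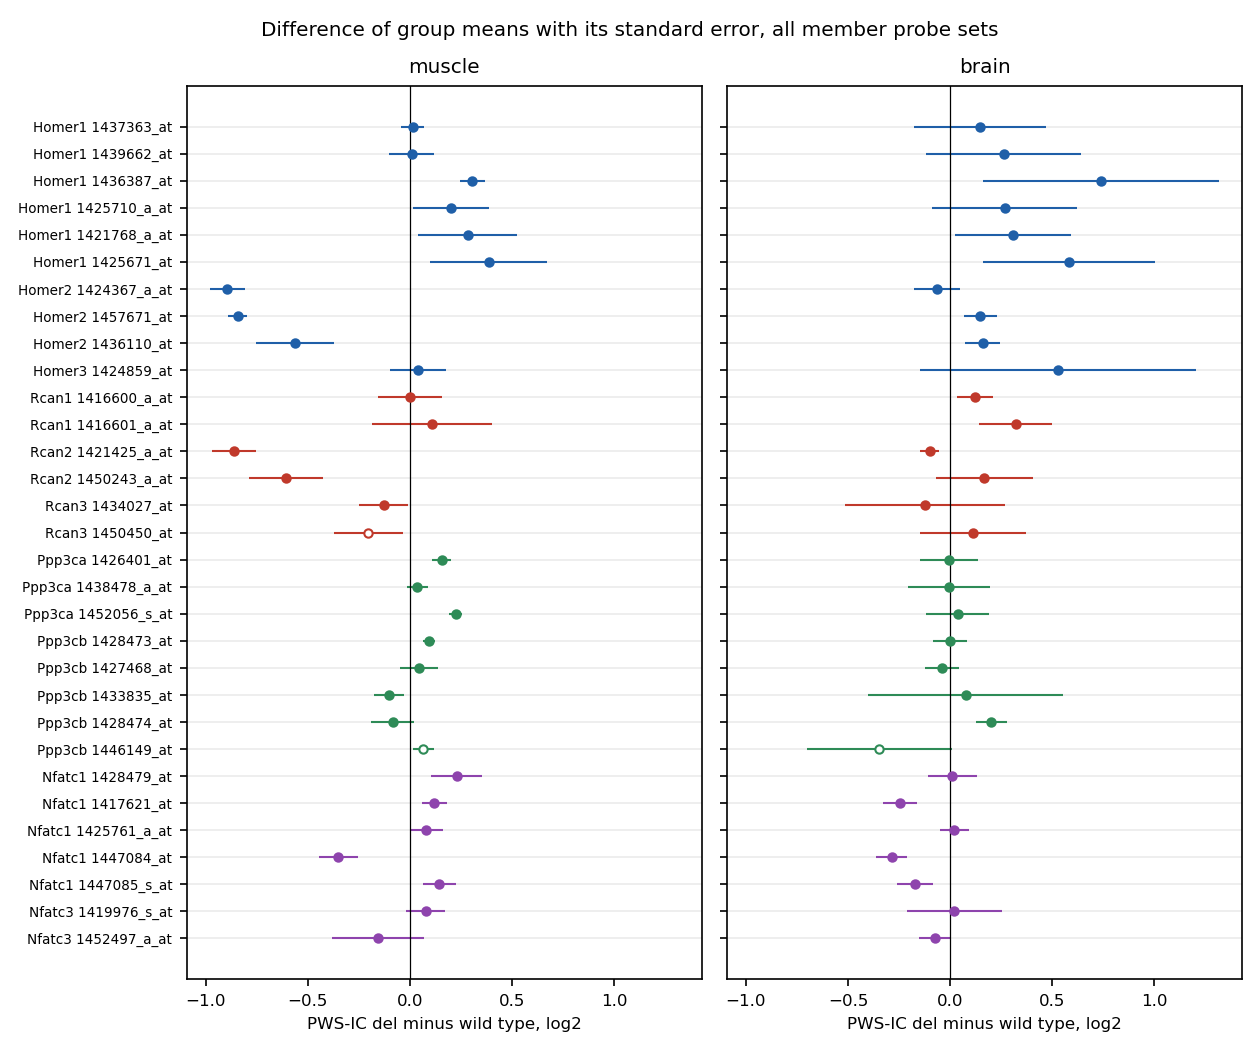
Difference of group means, PWS-IC del minus wild type on the log2 scale, for all 31 probe sets, with muscle left and brain right. Bars are the standard error from the arrays of the 2 groups, colours mark the Homer, Rcan, calcineurin and NFAT families, and open circles mark probe sets too dim for the fit. In muscle the 5 probe sets of Homer2 and Rcan2 lie between -0.89 and -0.56 and all others between -0.35 and 0.39, whereas in brain those 5 lie between -0.10 and 0.17.

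Markers of fibre type and of other cells also differed between the muscle groups. Myh2, the myosin of fast oxidative fibres, read 12.81, 12.65 and 12.20 in PWS-IC del muscle, against 13.80, 12.92, 13.79 and 13.67 in wild-type muscle. Myh2 and myoglobin (Mb), the 2 oxidative fast fibre markers, were both lower without overlap, by -0.99 and -0.26, and their summed intensity was 15397 to 18755 in PWS-IC del muscle and 19914 to 27987 in wild-type muscle. Of the 11 slow fibre markers, 6 were higher and 5 lower, and Casq2 (-1.03) and Pln (-0.39), which bind or govern calcium in the sarcoplasmic reticulum, were lower without overlap. This split rests on wild-type 2. Myh7 read 12.20, 10.59 and 10.95 in PWS-IC del muscle, against 11.33, 8.82, 12.03 and 11.80 in wild-type muscle. Without wild-type 2 the differences of Myh7, Tnnt1, Tnni1, Tnnc1 and Myl2 turned from positive to negative. Tpm3 stayed higher, and the 5 lower markers stayed lower. The slow fibre sum ran from 12724 to 32082 in PWS-IC del muscle and from 6864 to 33830 in wild-type muscle. Without wild-type 2, the array with the low slow fibre markers, Homer2 differed by -0.91 (1424367_a_at) and Rcan2 by -0.88 (1421425_a_at).

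All 10 endothelial markers had negative differences, with a median of -0.31. Pecam1, Flt1, Vwf and Egfl7 did not overlap, and the endothelial sum was 3174 to 4398 in PWS-IC del muscle and 4331 to 5529 in wild-type muscle. Of 8 macrophage markers 7 had positive differences, with a median of 0.43 and sums of 5389 to 8214 in PWS-IC del muscle and 4915 to 6337 in wild-type muscle. All 6 fibroblast and tendon markers had positive differences, with overlap and a median of 0.33. Of 4 fat cell markers 3 had positive differences, with overlap and a median of 0.37, the largest being Retn at 2.04. The fat cell sum ran from 8434 to 28006 in PWS-IC del muscle and from 9473 to 24232 in wild-type muscle. The sum of the 7 general skeletal muscle markers ran from 106112 to 110510 in PWS-IC del muscle and from 109482 to 110613 in wild-type muscle. No marker list was at 0 in any muscle array. The part of fibre type, endothelium, macrophages, fibroblasts or fat cells in the Homer2 and Rcan2 differences was not tested.

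**Figure D3:**
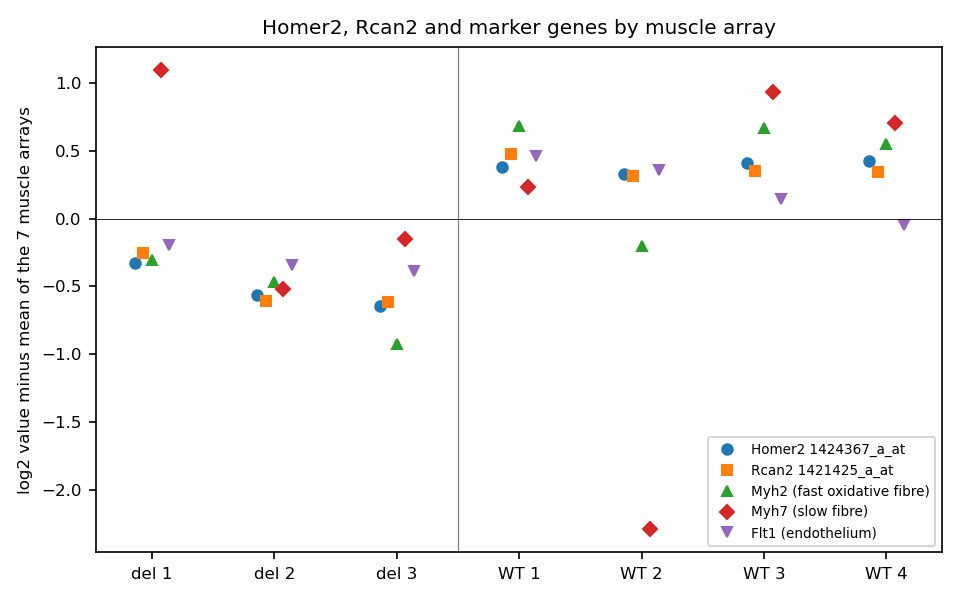
Homer2, Rcan2, Myh2, Myh7 and Flt1 on the 7 muscle arrays, each as the log2 value minus its mean over those arrays, with the 3 PWS-IC del arrays left of the line and the 4 wild-type arrays right of it. Homer2 and Rcan2, both chosen for lower PWS-IC del values on these arrays, lie close together on every array. Myh2 in wild-type 2 (12.92) comes near the highest mutant value (12.81), and Myh7, the slow fibre myosin, is lowest in wild-type 2 (8.82) and highest in PWS-IC del 1 (12.20).

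The likeness of the profiles was measured as the root mean square difference over the 7 muscle arrays after each profile was centred on its own mean. Homer2 and Rcan2 differed from each other by 0.06 on the log2 scale. Both were chosen for lower PWS-IC del values on these arrays, which makes a small difference likely, so nothing is read from it. Among 13635 other genes, the 5 most like Homer2 were St3gal5 (0.07), Esrrg (0.11), Dapp1 (0.12), Ptger4 (0.13) and Fads6 (0.13). The 5 most like Rcan2 were St3gal5 (0.04), Fads6 (0.11), Gdap10 (0.13), As3mt (0.13) and Dapp1 (0.14). St3gal5, which makes the ganglioside GM3, was closer to Rcan2 than Homer2 was. All 7 of these genes were lower in PWS-IC del muscle, by -0.94 (Esrrg) to -0.66 (As3mt), as the measure makes likely for any gene it selects.

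Homer2 lies on chromosome 7, the chromosome of the imprinted domain, and Rcan2 on chromosome 17. In the RefSeq annotation 335 genes, 110 of them protein coding, lie between Snrpn and Homer2. Among the 10 annotated neighbours of Homer2, 3 had a probe set of their own. The muscle differences were -0.02 for 2900076A07Rik, which was too dim to enter the fit, 0.10 for Fsd2, whose groups did not overlap, and 0.03 for Whamm. Fsd2 and Whamm were not lower in the way Homer2 was, and the neighbours without a probe set of their own could not be read.

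In brain, 0 of the 30 member probe sets tested changed with genotype by limma at an adjusted p of 0.05, a threshold that 0.0711% of all tested probe sets passed. The smallest adjusted p among them in the limma fit was 0.61. At an unadjusted p under 0.05, 1 member probe set passed (Nfatc1 1447084_at), against 6.35% of all probe sets. The median difference of the 30 was 0.06, beside 0.02 for all tested probe sets. Groups did not overlap for 3 of the 30, against 7.87% of all probe sets. Ppp3cb 1428474_at was the 1 higher (0.20, beside 4.48% of all probe sets), and Nfatc1 1447084_at (-0.29) and 1447085_s_at (-0.17) were the 2 lower (beside 3.39%).

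Homer2 in brain read 10.92, 10.58 and 10.78 in PWS-IC del mice by 1424367_a_at, against 10.90, 10.97, 10.68 and 10.75 in wild-type mice. The difference was -0.06, with a 95% interval of -0.35 to 0.22 from the limma fit. For 1457671_at the interval ran from -0.10 to 0.40 and for 1436110_at from -0.10 to 0.41. Rcan2 by 1421425_a_at read 12.50, 12.62 and 12.45 in PWS-IC del brain, against 12.61, 12.67, 12.63 and 12.59 in wild-type brain, a difference of -0.10 with an interval of -0.32 to 0.12. For the more variable 1450243_a_at the interval ran from -0.31 to 0.64. All 5 intervals include 0. The difference between the tissues in genotype effect was not tested, because the muscle values chose the genes.

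Several other probe sets varied widely among the brain arrays of 1 group. Homer3, which is abundant in Purkinje cells of the cerebellum, read 7.37, 9.35 and 6.74 in PWS-IC del brain, against 7.03, 7.17, 7.62 and 7.33 in wild-type brain. The high array, PWS-IC del 2, is the one with the highest cerebellar markers, among them Pcp2 at 16.76, and wild-type 3, with Pcp2 at 13.03, had the highest Homer3 of its group. Pcp2 lay between 8.20 and 8.79 on the other 5 brain arrays. With all arrays Homer3 differed by 0.53, and without PWS-IC del 2 by -0.24. The part of cerebellar signal in the Homer3 values was not tested. Homer1 by 1436387_at read 10.96, 10.33 and 11.20 in PWS-IC del brain, against 10.05, 11.36, 9.27 and 9.69 in wild-type brain, a difference of 0.74 ± 0.46 (SE of the fit). This was the largest of the 6 Homer1 brain differences, which were all positive. The leading probe set 1437363_at differed by 0.15, with a 95% interval of -0.47 to 0.76 from the limma fit. Without wild-type 3 it differed by -0.05. Of the 6 Homer1 probe sets, 5 were lowest in wild-type 3. The difference of 1436387_at lay between 0.46 and 1.16 when 1 array at a time was left out. It was 0.30 without wild-type 1 and 3 together and 1.35 without wild-type 1 and 2 together.

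Rcan3 and a Ppp3cb probe set were low in the same 3 brain arrays. Rcan3 by 1434027_at read 9.77, 9.89 and 8.61 in PWS-IC del brain, against 9.23, 9.33, 9.95 and 9.66 in wild-type brain. Ppp3cb by 1433835_at read 10.23, 10.43 and 9.19 in PWS-IC del brain, against 9.32, 9.43, 10.56 and 10.18 in wild-type brain. PWS-IC del 3 and wild-type 1 and 2 were thus low for both, and the groups overlapped. The means of the oligodendrocyte and astrocyte marker lists were low in these arrays too. The mean of the oligodendrocyte markers was 11.97 in PWS-IC del 3 and 12.06 and 11.89 in wild-type 1 and 2, against 12.31 to 12.57 on the other 4 arrays, and that of the astrocyte markers 11.27, 10.97 and 11.30, against 11.59 to 11.76. Single markers did not all follow these means. The astrocyte marker Slc1a2 was highest in wild-type 1 and 2, at 13.63 and 13.58, and the oligodendrocyte marker Mbp in wild-type 1, at 13.98. The part of glia in the Rcan3 and Ppp3cb values was not tested. The leading Ppp3cb probe set 1428473_at did not follow this order and differed by -0.00 ± 0.11 (SE of the fit). Ppp3ca differed by -0.01 ± 0.14 (1426401_at, SE of the fit) and Rcan1 by 0.12 ± 0.11 (1416600_a_at, SE of the fit). Nfatc1 by 1447084_at read 7.89, 7.80 and 7.83 in PWS-IC del brain, against 8.26, 8.02, 8.19 and 8.03 in wild-type brain, a difference of -0.29 (limma unadjusted p = 0.026, adjusted p = 0.61), and -0.19 without wild-type 1 and 3. The leading Nfatc1 probe set differed by 0.01 and that of Nfatc3 by 0.02. Without wild-type 1 and 3, again 0 of the 30 passed.

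**Figure D4:**
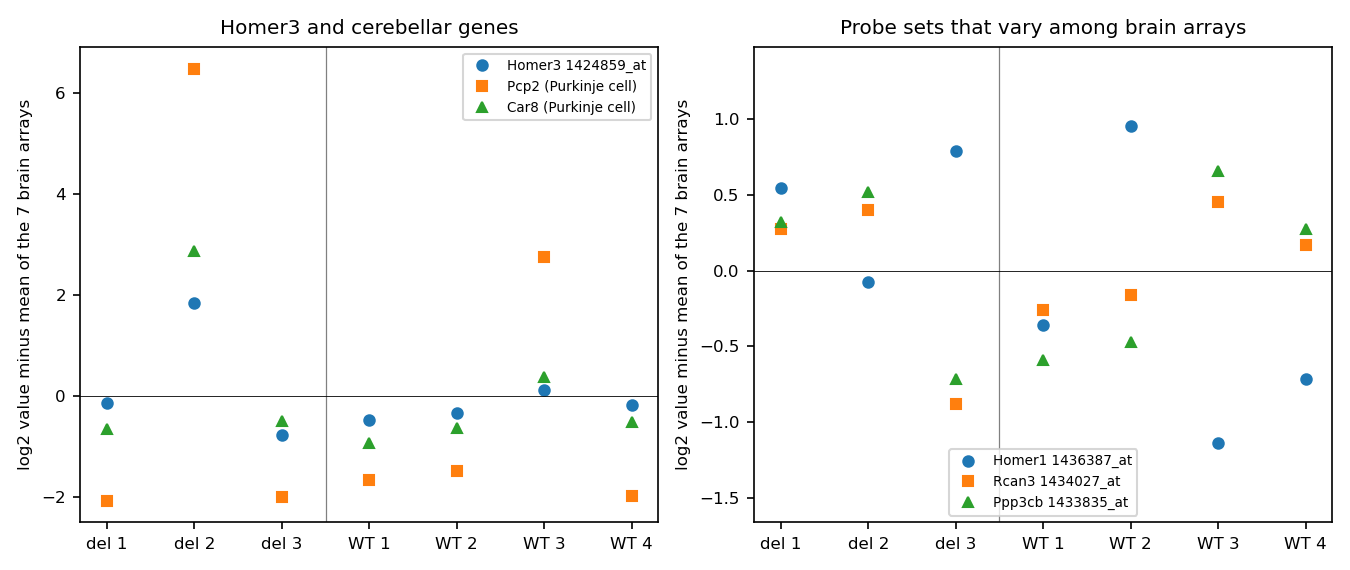
Left, Homer3 and the Purkinje cell genes Pcp2 and Car8 on the 7 brain arrays; right, Homer1 1436387_at, Rcan3 1434027_at and Ppp3cb 1433835_at. Values are log2 minus the mean over the 7 arrays, with the PWS-IC del arrays left and the wild-type arrays right of the line. Homer3 and both Purkinje genes are highest in PWS-IC del 2, and Rcan3 and Ppp3cb are low together in 3 arrays, PWS-IC del 3 and wild-type 1 and 2.

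Wild-type brain and wild-type muscle differed for most member probe sets, as for most of the array. By limma 21 of 29 tested member probe sets passed at an adjusted p of 0.05, 17 higher and 4 lower in brain, against 76.4% of all tested probe sets, 58.1% higher and 18.3% lower. The median of all tested probe sets was itself 0.53 higher in brain, and centring each array on its median or quantile normalization moved this shift to -0.15. Under all 3 scalings 6 member probe sets passed as higher and 4 as lower in brain, and the values below are as deposited unless said otherwise. The same 10 also passed without wild-type brain 1 and 3, the arrays with muscle markers.

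Rcan2 and Rcan3 were the calcineurin inhibitors with higher signal in brain. Rcan2 by 1421425_a_at read 12.61, 12.67, 12.63 and 12.59 in wild-type brain, against 10.70, 10.53, 10.57 and 10.56 in wild-type muscle. The difference was 2.04 ± 0.08 (SE, limma adjusted p = 1.6e-08), or 1.51 above the median of all probe sets, and 1450243_a_at gave 2.00 ± 0.19. Rcan3 by 1434027_at read 9.23, 9.33, 9.95 and 9.66 in wild-type brain, against 7.01, 7.38, 7.07 and 7.31 in wild-type muscle, a difference of 2.35 ± 0.17 (SE, limma adjusted p = 8.0e-07). Rcan1 differed by 0.49 and 0.61, close to the shift of the whole array, and by -0.18 and -0.07 after median centring. The order of Rcan2 over the groups was thus the 2 brain groups, which overlapped, then wild-type muscle, then PWS-IC del muscle.

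Ppp3ca was higher in brain by 2 probe sets, at 1.39 ± 0.12 (SE, 1426401_at) and 1.03 ± 0.13 (SE, 1452056_s_at), with limma adjusted p of 3.7e-06 and 4.5e-05. Homer2 was higher by 1436110_at, with 7.40, 7.51, 7.45 and 7.57 in wild-type brain, against 6.12, 6.17, 6.24 and 6.22 in wild-type muscle (difference 1.29 ± 0.08, SE, limma adjusted p = 4.2e-07). Its brighter probe sets 1424367_a_at and 1457671_at differed by 0.83 and 0.86 as deposited, but by 0.15 and 0.18 after median centring and 0.16 and 0.10 after quantile normalization, where they did not pass. Homer3 differed by 0.74 as deposited and 0.07 after median centring. The 6 Homer1 probe sets did not pass as deposited, with differences of -0.27 to 0.30, while 4 of them were lower in brain after median centring, by -0.95 to -0.76.

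The leading probe sets of the NFAT factors had higher signal in muscle. Nfatc1 by 1428479_at read 7.26, 7.51, 7.46 and 7.52 in wild-type brain, against 10.43, 10.08, 10.26 and 10.21 in wild-type muscle, a difference of -2.81 ± 0.11 (SE, limma adjusted p = 1.1e-08). The brain arrays with muscle markers, wild-type 1 and 3, were not higher than the other 2 by this probe set. Nfatc3 differed by -1.96 ± 0.11 (SE, 1419976_s_at) and -0.93 ± 0.16 (SE, 1452497_a_at), with limma adjusted p of 1.5e-07 and 0.00046. The other 4 Nfatc1 probe sets differed by 0.01 to 0.65 as deposited and by -0.66 to -0.03 after median centring. Of these, 1447084_at (0.65, limma adjusted p = 0.00023) and 1447085_s_at (0.36, limma adjusted p = 0.011) passed as higher in brain as deposited. After quantile normalization and after median centring, 1447084_at did not pass. By contrast 1447085_s_at passed as lower in brain, at -0.38 and -0.32 (limma adjusted p = 0.010 and 0.033). The probe sets 1417621_at and 1425761_a_at, which did not pass as deposited, also passed as lower under both. Among 5 probe sets of Ppp3cb, 1428474_at was lower in brain by -0.64 ± 0.11 (SE, limma adjusted p = 0.00041), while its leading probe set 1428473_at differed by 0.24 as deposited and -0.43 after median centring.

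**Figure D5:**
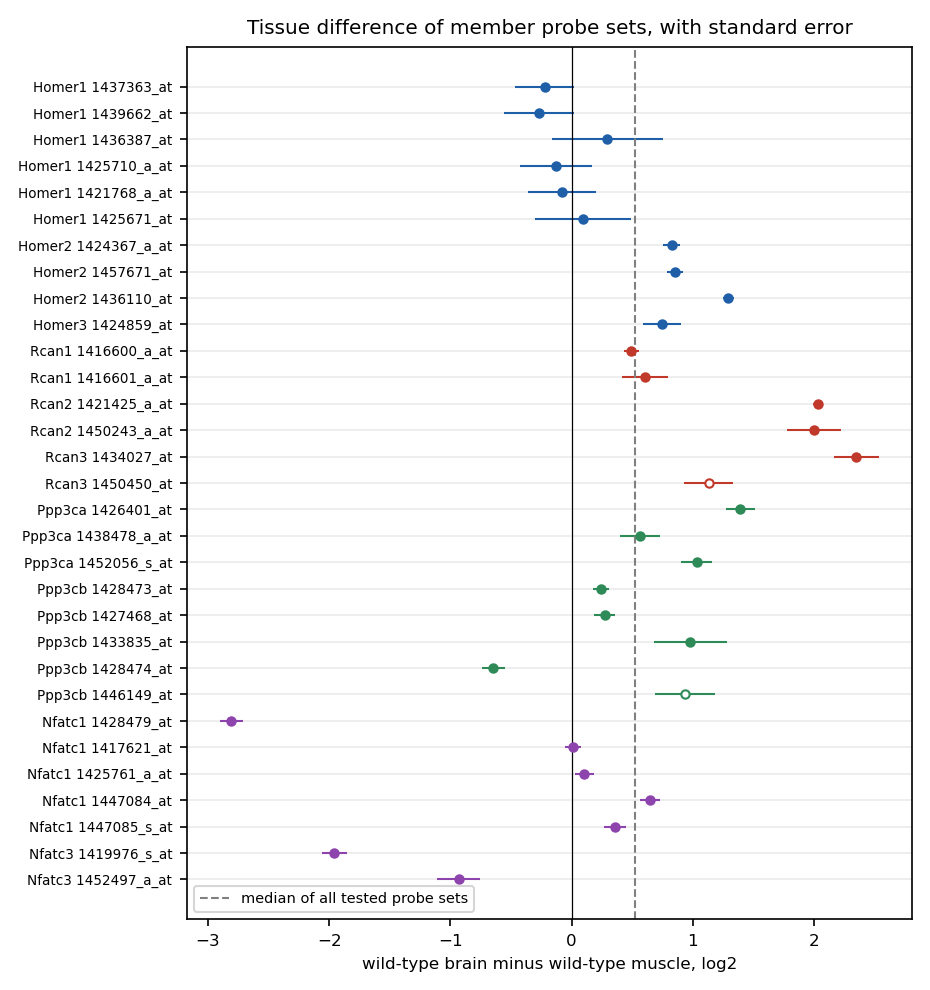
Wild-type brain minus wild-type muscle on the log2 scale for the 31 probe sets, with bars for the standard error from the arrays; the dashed line is the median of all tested probe sets (0.53) and open circles mark probe sets too dim for the fit. Rcan2 and Rcan3 lie at 2.00 to 2.35 apart from the dim Rcan3 probe set at 1.13, and Nfatc1 1428479_at lies at -2.81; the sign of many points near 0.5, among them Rcan1, turns after median centring.

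The wider pathway was followed with 4 gene lists, each gene represented by its brightest probe set. For calcineurin and its regulators, 15 of 21 genes had a probe set and 12 were tested in brain, of which 0 passed by limma, adjusted or at an unadjusted p under 0.05. Their median difference in brain was -0.03, beside 0.02 for all probe sets. Myoz1, a calcineurin-binding protein of the Z disc of fast fibres, had the smallest p in brain (-0.38 ± 0.17, SE, limma unadjusted p = 0.052), with 8.75, 8.67 and 8.50 in PWS-IC del brain and 9.31, 9.01, 9.11 and 8.63 in wild-type brain. Without wild-type 1 and 3, the brain arrays with muscle markers, the difference was -0.18. Wild-type 2, whose muscle marker mean was 6.65, read 9.01, above every PWS-IC del brain array. The part of muscle signal in the Myoz1 difference was not tested. Next came Cib1 (0.29, and 0.14 without wild-type 1 and 3), Cabin1 (-0.15), which binds calcineurin, and Fkbp1a (-0.11), the FK506-binding protein. In muscle 8 of 14 had positive and 6 negative differences, the median was 0.00, and 0 did not overlap. The largest muscle differences were -0.68 for Myoz2, the Z disc protein of slow fibres, and 0.21 for Myoz3. Myoz2 read 11.50, 10.55 and 10.70 in PWS-IC del muscle, against 12.04, 10.22, 12.03 and 12.10 in wild-type muscle, with its lowest value in wild-type 2, the array with low slow fibre markers, and differed by -1.14 without that array.

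For NFAT, its kinases and partners, 17 of 18 genes were tested in brain and 0 passed by limma, adjusted or unadjusted. Nfatc4 (-0.20), Dyrk1a (0.19), a kinase that phosphorylates NFAT, Xpo1 (0.21), a nuclear exporter, and Nfatc2ip (0.18, and 0.11 without wild-type 1 and 3) had the smallest p in brain. In muscle 9 were positive and 9 negative with a median of -0.01. Dyrk1a had the largest muscle difference, 0.21 without overlap, with 10.45, 10.20 and 10.35 in PWS-IC del muscle and 10.18, 9.97, 10.19 and 10.16 in wild-type muscle. Gata2 followed at -0.18 with overlap.

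Among the Homer partners, 19 of 23 genes were tested in brain and 0 passed by limma, adjusted or unadjusted. The smallest p belonged to Itpr3, an inositol trisphosphate receptor (-0.34 ± 0.15, SE, limma unadjusted p = 0.053), followed by the channel Trpc6 (0.45) and the ryanodine receptors Ryr3 (-0.50) and Ryr1 (-0.57). Ryr1, the calcium release channel of skeletal muscle, read 8.21 in wild-type brain 1, the array with the most muscle marker signal. Without wild-type 1 and 3, Ryr1 differed by -0.12, Ryr3 by -0.20 and Trpc6 by 0.31. The part of muscle signal in the Ryr1 difference was not tested. In muscle 12 of 16 had negative differences and the median was -0.15, beside -0.00 for all probe sets. The largest were Grm5 (-0.55), the glutamate receptor that Homer binds at synapses, and Agap2 (-0.55), both with overlap. The 3 genes of this list whose groups did not overlap, named after their values were seen, were Dnm3 (0.48) and Shank1 (0.32), which were higher, and Shank3 (-0.34), which was lower in PWS-IC del muscle. All 5 neuron markers had negative muscle differences with overlap. Their summed intensity was 264 to 434 in PWS-IC del muscle and 203 to 1500 in wild-type muscle. This sum was highest in wild-type 2, where Grm5 was also highest at 7.35, whereas Agap2 was highest in wild-type 4 at 7.65. Without wild-type 2, Grm5 differed by -0.34, Agap2 by -0.49 and Shank1 by 0.21. The part of neuron markers in the Grm5 and Agap2 differences was not tested.

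For the CaM kinases and the histone deacetylases they act on, 12 of 13 genes were tested in brain and 0 passed by limma, adjusted or unadjusted, with Camk1g (0.21), Camk1 (0.15), Camk2b (-0.16) and Hdac5 (0.09) first by p. Without wild-type 1 and 3, Camk1g differed by 0.11 and Camk1 by 0.06. In muscle 8 of 11 were negative with a median of -0.06. The largest muscle differences were -0.32 for Camk4, which was too dim to enter the fit, and 0.25 for Camkk2, both with overlap, and without wild-type 2 they were -0.17 and 0.44. In the fit without wild-type brain 1 and 3, again 0 genes of the 4 lists passed by limma in brain, adjusted or unadjusted.

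Between wild-type tissues the list counts are set beside the 58.1% of all tested probe sets that were higher and the 18.3% that were lower in brain as deposited, a split that turns under the other scalings. As deposited, limma gave 8 higher and 5 lower of 14 genes of the calcineurin list, and these 13 kept their call under all 3 scalings. Among the 8 were Ppp3r1, the regulatory subunit of calcineurin, and the anchoring protein Akap5, and among the 5 were Myoz1, Myoz2 and Myoz3. Of 17 NFAT list genes 10 were higher and 3 lower as deposited, but 2 higher and 8 lower after quantile normalization, and only Lrrk2 (higher) and Dyrk2, Mef2a and Nfatc2 (lower) kept their call under all 3. Of 17 Homer partners 14 were higher and 3 lower as deposited, and 12 and 3 under all 3 scalings, with Grm5, Dlg4 and Shank3 among the higher and Ryr1, Itpr2 and Itpr3 the lower. Of 12 CaM kinase list genes 10 were higher and 0 lower as deposited, and 8 and 0 under all 3 scalings.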

How the data were processed

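The deposited table holds a linear intensity for each probe set on each array, made by the authors with PLIER and the Affymetrix Expression Console per the submitters' processing notes. The sources used here give no versions, background settings or scaling of arrays. The 14 arrays had median intensities of 142 to 170 in brain and 88.7 to 96.4 in muscle, and the number of arrays limits the precision. Correlations between arrays were 0.952 to 0.992 in brain and 0.981 to 0.991 in muscle. 0 values were missing and 0 pairs of arrays were identical. The labels call the arrays biological replicas; p-values measure the spread between these samples.

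Symbols came from the platform annotation: of 45037 probe sets left after 64 controls, 34945 had 1 symbol, 932 several (used for no gene) and 9160 were not listed. The sources name no genome build, so RefSeq (GRCm38.p6) gave only promoter sequences, chromosomes and gene order. Promoter windows were used for 8 of the 10 genes.

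Computed here were log2(intensity + 16), group means and SDs (muscle standard errors come from the pooled SD of the arrays, those of tested values from the fit), and limma 3.58.1 fits (lmFit, eBayes) in R 4.3.3. Each comparison was fitted alone, without probe sets under the 0.25 quantile of mean value, which left 33778, with 2-sided p-values adjusted by Benjamini-Hochberg over all of them and a threshold of 0.05. The smallest p of an exact permutation test of 3 against 4 arrays would be 0.0286. On simulated data the brain comparison, run on 33778 probe sets, recovered 6% of changes of 0.5, 74% of 1, 88% of 2 and 100% of 4 log2 units, with 6 false calls; the tissue comparison, also on 33778, recovered 22%, 86%, 98% and 100%, with 9. In the simulated data, changes were planted only among the brighter probe sets, with independent normal noise on each array. Recovery for dim members, or under shifts shared by many genes of an array, was not measured. The members, gene lists and marker lists were chosen with earlier results of these data known. Named genes follow a rule: every member probe set, from each list the 4 genes with the smallest p in brain and the 2 with the largest muscle difference, and the 5 genes most like Homer2 and Rcan2; neighbours, markers and the genes of the label check stand outside it. Alternatives covered the pseudocount, scaling, filter, probe set choice, intensity trend, array weights, a joint fit, the replicate number as a block, the threshold and leaving out arrays. The fits without wild-type brain 1 and 3, the list and marker genes without wild-type muscle 2 and the lists under other scalings were added after seeing the data.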

Additional observations from a re-analysis of the deposited data

Results flagged for a closer look

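Among 62 groups of 4 arrays with member values, 4 held an array far from the other 3; chance alone flags about 1 in 20 such groups. Ppp3ca 1426401_at read 11.86 in wild-type muscle 2, below the other wild-type muscle arrays. Ppp3cb 1428473_at was lowest in the same array, at 12.57. Ppp3cb 1433835_at was lowest in wild-type muscle 3, at 8.82. Nfatc3 1452497_a_at was lowest in wild-type brain 4, at 7.45.

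The first and second of these are probe sets whose muscle groups did not overlap. Without wild-type muscle 2 their differences, PWS-IC del minus wild type, were 0.12 for Ppp3ca 1426401_at, against 0.16 with all arrays, and 0.07 for Ppp3cb 1428473_at, against 0.09 with all arrays. That array also had the lowest slow fibre markers of the muscle arrays, and the part of this in the values was not tested.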

How the results depend on the processing

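The count of member probe sets changed with genotype in brain was 0 under every alternative run, including an adjusted p threshold of 0.1, the replicate block, each array left out in turn, and the fits without wild-type brain 1 and 2 or 1 and 3. Over all brain probe sets the block gave 11 calls against 24. In muscle, leaving out 1 array put Homer2 1424367_a_at between -0.99 and -0.83 and Rcan2 1421425_a_at between -0.98 and -0.80, and the mean over its probe sets gave Homer2 -0.77. The tissue contrast depended on scaling. Among the 29 member probe sets tested, 17 were called higher and 4 lower in brain as deposited, 6 and 10 after quantile normalization, and 6 and 13 after median centring; over all probe sets the split was 19620 higher and 6181 lower as deposited, 10554 and 13993 after quantile normalization, and 10397 and 13705 after median centring. With 1 probe set per gene, or the mean of its probe sets, 9 genes passed, 7 higher and 2 lower. The replicate block left 19 calls (15 higher, 4 lower), and leaving out 1 array 19 to 21 (15 to 17 higher, 4 lower). After quantile normalization the tissue differences with a turned sign were Rcan1 1416600_a_at at -0.20 and 1416601_a_at at -0.23, Nfatc1 1417621_at at -0.80, 1425761_a_at at -0.68, 1447084_at at -0.12 and 1447085_s_at at -0.38, Ppp3cb 1427468_at at -0.20, and Homer1 1436387_at at -0.41 and 1425671_at at -0.51. After median centring they were Rcan1 1416600_a_at at -0.18 and 1416601_a_at at -0.069, Nfatc1 1417621_at at -0.66, 1425761_a_at at -0.57, 1447084_at at -0.028 and 1447085_s_at at -0.32, Ppp3cb 1427468_at at -0.40 and 1428473_at at -0.43, Ppp3ca 1438478_a_at at -0.11, and Homer1 1436387_at at -0.38 and 1425671_at at -0.58. These settings remove a shift of the whole array between tissues; which scaling is right was not tested. Deviations of same-numbered arrays correlated by -0.31 to 0.01 between the brain groups and 0.01 to 0.30 between the muscle groups. Between brain and muscle they correlated by -0.00 to 0.06 in wild-type mice and 0.06 to 0.17 in PWS-IC del mice. In no comparison did every array correlate best with its own number. Wild-type brain 1, 2 and 4 and PWS-IC del brain 1 and 3 did so with muscle, while wild-type brain 3 and PWS-IC del brain 2 did not. Such weak correlations cannot decide whether equal numbers in brain and muscle mark the same mouse, and the main fits did not pair the arrays. Changes of 0.5 log2 units are mostly beyond the reach of 3 against 4 brain arrays.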
